A study of Mus musculus with 13 samples.

Results

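Cyp2c genes encode cytochromes P450 of the endoplasmic reticulum, and 6 of them were followed across 5 groups of mouse livers: Cyp2c38, Cyp2c50, Cyp2c54, Cyp2c55, Cyp2c44 and Cyp2c70. Each gene on a given list was taken where the array had a probe set annotated to its symbol alone. Among several such probe sets of a gene the one to use was chosen by its mean level over all arrays. Each of the 6 had only 1, so no measured value decided between probe sets, and family members that share probe sets were left out. A further 7 Cyp2c genes had a probe set of their own but were not on that list, and they are shown only beside the 6. The 6 genes stood among 19938 genes measured in this way, of which 14953 passed a filter on dim genes, and all 6 passed it. Cyp2c44 is listed in the array annotation as Cyp2c23, its current symbol.

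Total RNA of frozen liver was hybridised to 13 single-colour Affymetrix arrays, from mice aged 14 days. The groups were RB N750F mutant with diethylnitrosamine (N750F DEN, 5 arrays), RB knockout (KO DEN, 2), heterozygous RB (HET DEN, 2) and wild type with the same treatment (WT DEN, 2), and untreated wild type (2). Diethylnitrosamine (DEN), a liver carcinogen that P450 enzymes activate, was injected once into the peritoneum at 20 mg/kg and acted for 24 h. The study asks how livers with altered RB differ after this exposure.

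RB, the retinoblastoma protein encoded by Rb1, restrains E2F transcription factors, and N750F changes the pocket that binds partners with an LXCXE motif. Wild type mice in both groups carried floxed Rb1 without Cre, and knockout mice carried floxed Rb1 with Cre. Heterozygous mice had a functional allele beside a floxed allele with Cre, although a second label field tags these arrays LOH. The description of the N750F mice names only that mutation. Their sample titles begin with NF, as those of the heterozygous mice begin with plusF. The labels do not spell out whether N750F mice also carried a floxed allele or Cre. Cre was driven by the albumin promoter, so that deletion is limited to albumin-expressing cells and other liver cells keep RB. Knockout and heterozygous livers therefore differ from wild type livers in the presence of Cre as well as in Rb1. Whether N750F livers do so too is not known. The design text describes the untreated mice as given saline, and they were of wild type alone. A genotype difference that existed without DEN and one in the response to DEN cannot be told apart. The labels name no litters or pools, and p-values therefore cover only the spread seen among these arrays, which may be partly technical.

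CYP2C enzymes take electrons from P450 reductase, hold a haem group and oxidise drugs, fatty acids, retinoids and bile acids. In mice much of the family is a large cluster of similar genes on chromosome 19, and liver is a main site of expression for many of them. The nuclear receptors CAR and PXR and liver transcription factors such as HNF4A regulate several members. Of the genes described, Cyp2c38, Cyp2c50, Cyp2c54 and Cyp2c44 encode enzymes that oxidise arachidonic acid, in part to epoxides. Cyp2c55 encodes a hydroxylase of arachidonic acid that is known from intestine and from liver exposed to CAR or PXR activators, and Cyp2c70 makes the muricholic acids of rodent bile.

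The sequences upstream of 4 of the 6 genes are shown because the levels of Cyp2c38 and Cyp2c50 differed widely between groups whereas those of Cyp2c70 hardly did. Cyp2c70 was among the brightest genes, which have little room to differ once arrays are brought to common quantiles. The sequences run from 250 bases before to 50 bases after the annotated start and come from RefSeq, assembly GRCm38.p6, where 11 Cyp2c genes with a probe set of their own have such a window. Cyp2c37, which was not among the 6, is printed as the window most like that of Cyp2c50. Capitals mark TATAAA (the TATA box), CAAAGT (a core of HNF4 sites), AGGTCA (a half-site of nuclear receptors), GTTAAT (a half-site of HNF1) and TGACNNNGC (a core of antioxidant response elements), each searched on both strands. No 2 of the matches printed overlap.
Cyp2c38, chr19:39463026-39463325, minus strand: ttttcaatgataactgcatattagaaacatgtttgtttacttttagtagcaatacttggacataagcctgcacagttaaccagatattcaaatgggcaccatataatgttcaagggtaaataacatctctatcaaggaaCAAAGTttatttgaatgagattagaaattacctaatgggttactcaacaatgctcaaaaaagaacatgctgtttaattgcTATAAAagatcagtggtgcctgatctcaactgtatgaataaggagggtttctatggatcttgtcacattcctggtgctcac
Cyp2c50, chr19:40089429-40089728, plus strand: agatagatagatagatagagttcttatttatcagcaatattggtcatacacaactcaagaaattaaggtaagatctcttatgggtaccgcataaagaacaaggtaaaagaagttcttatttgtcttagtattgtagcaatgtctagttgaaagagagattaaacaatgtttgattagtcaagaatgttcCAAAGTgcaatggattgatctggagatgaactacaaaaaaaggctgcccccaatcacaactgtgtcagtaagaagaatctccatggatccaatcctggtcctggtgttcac
Cyp2c37, chr19:39992174-39992473, plus strand: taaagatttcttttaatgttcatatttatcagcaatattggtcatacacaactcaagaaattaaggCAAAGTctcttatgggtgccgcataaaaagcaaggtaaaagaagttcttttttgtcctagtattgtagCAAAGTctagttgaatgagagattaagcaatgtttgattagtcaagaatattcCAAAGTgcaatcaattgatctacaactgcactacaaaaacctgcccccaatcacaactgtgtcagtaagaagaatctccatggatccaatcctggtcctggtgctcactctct
Cyp2c55, chr19:39006769-39007068, plus strand: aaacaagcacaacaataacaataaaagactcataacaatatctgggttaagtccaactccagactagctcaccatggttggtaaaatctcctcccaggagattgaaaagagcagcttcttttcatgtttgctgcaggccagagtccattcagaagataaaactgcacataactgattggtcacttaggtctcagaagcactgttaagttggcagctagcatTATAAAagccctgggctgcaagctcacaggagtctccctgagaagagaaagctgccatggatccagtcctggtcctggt
Cyp2c70, chr19:40187237-40187536, minus strand: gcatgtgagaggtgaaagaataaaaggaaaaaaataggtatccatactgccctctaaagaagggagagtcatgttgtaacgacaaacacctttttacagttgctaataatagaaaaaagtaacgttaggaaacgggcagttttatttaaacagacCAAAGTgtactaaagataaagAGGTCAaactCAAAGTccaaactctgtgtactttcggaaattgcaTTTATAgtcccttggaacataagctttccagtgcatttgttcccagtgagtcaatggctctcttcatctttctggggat

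CAAAGT stood in the windows of Cyp2c38, Cyp2c50 and Cyp2c70 but not in that of Cyp2c55. It was found for 10 of the 11 Cyp2c genes, against 14.4% of the 32851 mouse windows searched. The match began 111 bases before the start in Cyp2c38, 61 bases before it in Cyp2c50, and 95 and 64 bases before it in Cyp2c70. TATAAA began between 29 and 31 bases before the start in Cyp2c38, Cyp2c55 and, on the other strand, Cyp2c70. It occurred for 8 of the 11 genes, against 13.6% of all windows. AGGTCA occurred for 3 of the 11 genes, Cyp2c70 among them, against 16.3% of all windows. GTTAAT was found for 1 and TGACNNNGC for 2 of the 11 genes, in none of the 4 genes described, against 7.1% and 12.4% of all windows. In these counts Cyp2c39, which has 2 windows, was included where either matched. The windows of Cyp2c37 and Cyp2c50 were identical at 86.6% of aligned positions, those of Cyp2c38 and Cyp2c50 at 58.7% and those of Cyp2c38 and Cyp2c70 at 48%. Because such genes are near copies of each other, probes may take up RNA of a neighbouring gene, and every level of Cyp2c38, Cyp2c50 and Cyp2c54 is uncertain in that respect. Probe sequences were not used here.

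The arrays were run on 2 occasions named in the labels' raw array names, run 1 with 9 arrays and run 2 with 4. Both KO DEN and both untreated arrays were in run 1, HET DEN and WT DEN had 1 array in each run, and N750F DEN had 3 in run 1 and 2 in run 2. The labels' replicate numbers, used below as array numbers, were 3 and 4 in HET DEN and WT DEN. They were 1 and 2 in KO DEN and untreated livers, and 1 to 5 in N750F DEN. HET DEN and WT DEN thus shared no number with KO DEN and untreated livers. Y-linked genes placed both KO DEN and both HET DEN mice as males (mean log2 level of 3 genes 9.05 to 9.45) and both WT DEN mice as females (4.46 and 4.61). N750F DEN held 1 male and 4 females, and the untreated group 1 of each. KO DEN array 2 stood apart in skeletal muscle markers, with a summed intensity of 10364 over 11 genes against 573 in KO DEN array 1 and 570 to 849 in all other arrays, so differences in KO DEN are also given without it where the text rests on them. Rb1 itself had log2 levels of 8.23, 7.82, 8.43, 8.06 and 7.93 in N750F DEN, 7.92 and 6.57 in KO DEN, 7.92 and 7.62 in HET DEN, 8.04 and 8.01 in WT DEN and 7.27 and 7.15 in untreated livers. The place of its probe set relative to the floxed exon was not known, and the level therefore does not check the knockout label. Alb, which marks hepatocytes, was at 12.79 to 13.01 in all arrays. Bringing the arrays to common quantiles leaves the brightest genes little room to differ, so this range does not compare hepatocyte content. The summed intensity of 16 hepatocyte markers was 57972 to 68583 in N750F DEN, 55300 to 61253 in KO DEN, 50107 to 59988 in HET DEN, 52227 to 59629 in WT DEN and 64252 to 65323 in untreated livers. The same limit applies to these sums, which rest on bright genes.

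Levels below are log2 of the normalized intensity plus 16, listed in the order of the array numbers, and differences are from a limma fit over all 13 arrays with array run as a term. Adjusted p-values are over all 14953 genes of a comparison, with 0.05 as the threshold. They are not independent evidence, since the genes were chosen with earlier results of these arrays known.

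Cyp2c38, an arachidonic acid epoxygenase (probe set 10467372), had the widest range of group means of the 6 genes on this scale. Its log2 levels were 5.74, 6.46, 6.64, 6.32 and 6.42 in N750F DEN, 7.09 and 6.88 in KO DEN, 9.44 and 9.50 in HET DEN, 8.29 and 8.04 in WT DEN, and 5.87 and 5.45 in untreated livers. HET DEN lay above every other array, WT DEN came next, then KO DEN, and the N750F DEN and untreated arrays overlapped at the low end. Untreated livers were near the level at which genes were left out as dim, 5.94, so sizes against them depend on the offset. In WT DEN against untreated livers Cyp2c38 rose by 2.50 ± 0.31 (log2 difference ± SE, adjusted p = 0.00463), or by 2.93 and 1.92 with offsets of 1 and 50. This call was kept in 22 of 25 alternative analyses. It was lost with run 1 arrays alone, where WT DEN had 1 array and the difference was 2.62. The arrays of only these 2 groups also ended it (adjusted p = 0.105). So did a block for the labels' replicate numbers in place of the run term, below called the replicate block (2.12, adjusted p = 0.298). HET DEN exceeded untreated livers by 3.80 ± 0.31 (adjusted p = 0.000132), the smallest p of all genes in that comparison. The corresponding differences were 1.32 ± 0.30 in KO DEN (adjusted p = 0.130) and 0.65 ± 0.26 in N750F DEN (adjusted p = 0.155, or 0.0462 without N750F DEN array 1).

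After DEN, Cyp2c38 was lower in N750F than in WT livers by a log2 difference of -1.85 ± 0.25 (adjusted p = 0.00474). With the replicate block this was -1.68 and did not pass (adjusted p = 0.0509). The difference was -2.01 among arrays of run 1, which did not pass when fitted alone (adjusted p = 0.228), and -1.67 among arrays of run 2. Without WT DEN array 4 it did not pass (adjusted p = 0.0963). Against HET DEN it was -3.15 ± 0.25 in N750F DEN (adjusted p = 7.79e-05) and -2.49 ± 0.31 in KO DEN (adjusted p = 0.00689), the smallest p of all genes in both comparisons. With the replicate block these were -2.99 (adjusted p = 0.00324) and -2.11, which did not pass (adjusted p = 0.330). Without KO DEN array 2 the KO DEN difference was -2.38 ± 0.38 (adjusted p = 0.00785), and without HET DEN array 3 or 4 it was -2.52 or -2.46 (adjusted p = 0.0693 or 0.0597). KO DEN differed from WT DEN by -1.18 ± 0.31 (adjusted p = 0.259), and HET DEN differed from WT DEN by 1.31 ± 0.30 (adjusted p = 0.595). In both of these the arrays did not overlap although the test was not passed. The same held for 14.5% of all genes, lower in KO DEN than in WT DEN, and for 11.2%, higher in HET DEN than in WT DEN. N750F DEN and KO DEN differed by -0.67 ± 0.26 (adjusted p = 0.346). Without KO DEN array 2 the differences were -1.07 for KO DEN against WT DEN, 1.43 for KO DEN against untreated livers and -0.78 for N750F DEN against KO DEN.

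Cyp2c50, whose enzyme oxidises arachidonic and linoleic acid (probe set 10463051), was likewise highest in HET DEN and WT DEN. Its log2 levels were 8.13, 7.88, 9.88, 8.96 and 8.67 in N750F DEN, 9.69 and 10.32 in KO DEN, 11.24 and 11.48 in HET DEN, 11.34 and 11.73 in WT DEN, and 10.31 and 9.54 in untreated livers. All HET DEN and WT DEN arrays lay above all others, KO DEN and untreated arrays overlapped, and 4 of 5 N750F DEN arrays lay below them. N750F DEN was lower than WT DEN by a log2 difference of -2.81 ± 0.42 (adjusted p = 0.00791) and lower than HET DEN by -2.63 ± 0.42 (adjusted p = 0.00532). With the replicate block they were -2.12, which did not pass (adjusted p = 0.0502), and -1.94 (adjusted p = 0.0436). In arrays of runs 1 and 2 these differences were -2.71 and -2.92 against WT DEN and -2.61 and -2.66 against HET DEN. The first was -2.72 without WT DEN array 4 (adjusted p = 0.256), and the second was -2.63 without either HET DEN array (adjusted p = 0.0676 without array 3 and 0.138 without array 4).

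The other differences of Cyp2c50 did not pass. They were -1.41 ± 0.53 for KO DEN against WT DEN (adjusted p = 0.486), -1.23 ± 0.53 for KO DEN against HET DEN (adjusted p = 0.483) and -1.40 ± 0.44 for N750F DEN against KO DEN (adjusted p = 0.277). Without KO DEN array 2 they were -1.72, -1.54 and -1.09. With the replicate block the difference of KO DEN from HET DEN was 0.062. Against untreated livers Cyp2c50 differed by 1.48 ± 0.53 in WT DEN (adjusted p = 0.231), 1.31 ± 0.53 in HET DEN (adjusted p = 0.249), 0.08 ± 0.50 in KO DEN (adjusted p = 0.982, and -0.24 without array 2) and -1.32 ± 0.44 in N750F DEN (adjusted p = 0.0925, or -1.80 with adjusted p = 0.0236 without N750F DEN array 3). HET DEN and WT DEN were -0.18 ± 0.50 apart (adjusted p = 0.972).

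Cyp2c54, the neighbour of Cyp2c50 on chromosome 19 and likewise an arachidonic and linoleic acid oxidase (probe set 10467400), had uneven replicates. Its log2 levels were 5.95, 5.78, 7.87, 6.42 and 5.70 in N750F DEN, 6.93 and 7.29 in KO DEN, 8.49 and 7.54 in HET DEN, 9.97 and 8.27 in WT DEN, and 6.86 and 6.49 in untreated livers. N750F DEN array 3 lay well above the other 4 and also held the highest Cyp2c50 level of its group. WT DEN arrays lay above all N750F DEN, KO DEN and untreated arrays, while HET DEN overlapped N750F DEN through that array. Cyp2c54 rose by 2.87 ± 0.58 in WT DEN against untreated livers (adjusted p = 0.0428), a call kept in 11 of 25 alternative analyses, over which the difference ran from 1.16 to 3.29. Leaving out any array of WT DEN, untreated livers or HET DEN, or N750F DEN array 5, ended that call (adjusted p = 0.0635 to 0.262), with differences of 2.21 without WT DEN array 3 and 3.29 without WT DEN array 4. It was lower in N750F DEN than in WT DEN by -2.86 ± 0.46 (log2, adjusted p = 0.00954), with -3.43 in run 1 and -2.21 in run 2. This difference was -2.30 without WT DEN array 3 (adjusted p = 0.0718) and -3.38 without WT DEN array 4 (adjusted p = 0.136).

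Against HET DEN the difference of Cyp2c54 in N750F DEN was -1.76 ± 0.46 (adjusted p = 0.0896), and without N750F DEN array 3 it was -2.05 ± 0.37 (adjusted p = 0.0150). KO DEN differed from WT DEN by -2.44 ± 0.58 (adjusted p = 0.197) and from HET DEN by -1.34 ± 0.58 (adjusted p = 0.487). Without KO DEN array 2 these were -2.61 and -1.51. With the replicate block the difference of KO DEN from HET DEN was 0.37. HET DEN against WT DEN gave -1.10 ± 0.55 (adjusted p = 0.721). Against untreated livers the differences were 1.77 ± 0.58 in HET DEN (adjusted p = 0.153), 0.44 ± 0.55 in KO DEN (adjusted p = 0.868, and 0.26 without array 2) and 0.01 ± 0.49 in N750F DEN (adjusted p = 0.993).

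**Figure D1:**
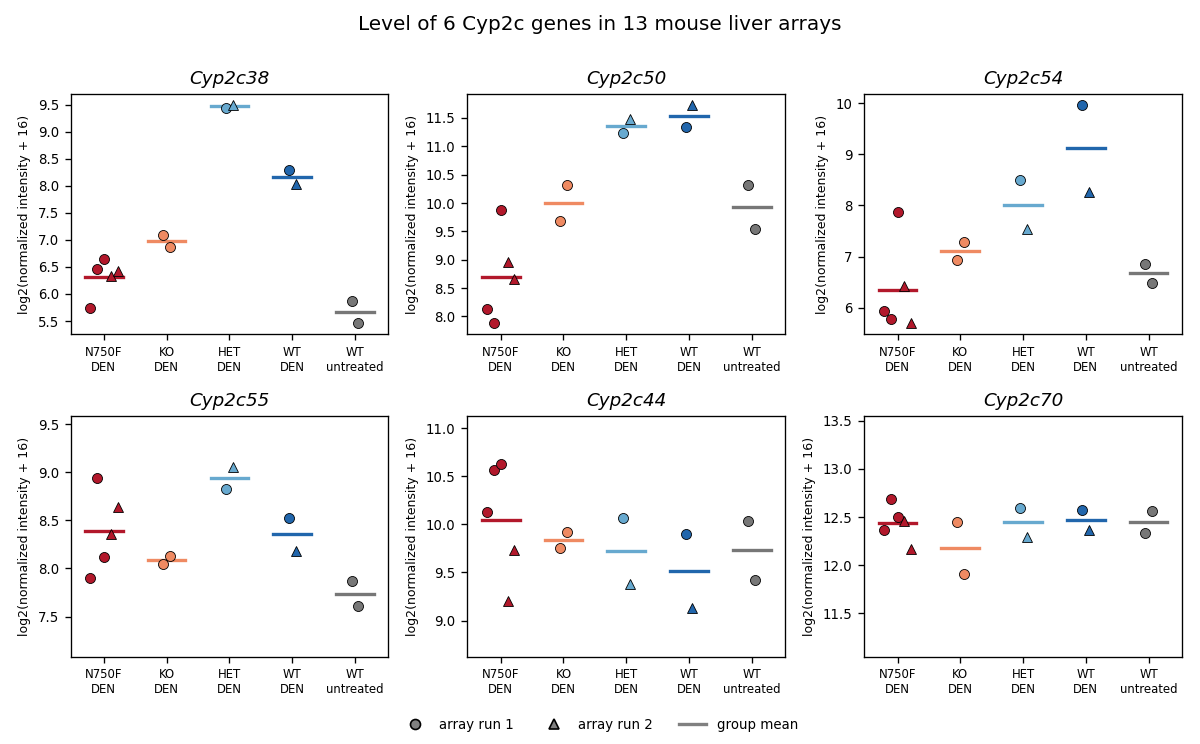
Log2 of normalized intensity plus 16 of the 6 Cyp2c genes in each of the 13 liver arrays, with circles for array run 1, triangles for run 2 and a line at each group mean. Cyp2c38, Cyp2c50 and Cyp2c54 were high in HET DEN and WT DEN, with Cyp2c38 between 8.04 and 9.50 there and no more than 7.09 elsewhere, whereas Cyp2c70 stayed between 11.91 and 12.69 in all arrays. Cyp2c70 is among the brightest genes, which common quantiles leave little room to differ.

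The remaining genes had no difference that passed the threshold in any of the 10 comparisons. Cyp2c55, the arachidonic acid hydroxylase (probe set 10463005), had log2 levels of 7.90, 8.94, 8.12, 8.36 and 8.63 in N750F DEN, 8.05 and 8.13 in KO DEN, 8.83 and 9.06 in HET DEN, 8.53 and 8.18 in WT DEN, and 7.87 and 7.61 in untreated livers. Every DEN array lay above both untreated arrays. With each DEN group taken alone, this held for 10.9% of all genes in N750F DEN and 18.5% in KO DEN. In HET DEN it held for 17.2% and in WT DEN for 17.4%. The differences from untreated livers were 0.62 ± 0.28 in N750F DEN (adjusted p = 0.207), 0.35 ± 0.32 in KO DEN (adjusted p = 0.799, and 0.31 without array 2), 1.17 ± 0.33 in HET DEN (adjusted p = 0.103) and 0.58 ± 0.33 in WT DEN (adjusted p = 0.485). N750F DEN and WT DEN overlapped and differed by 0.04 ± 0.27 (adjusted p = 0.960).

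Cyp2c44, an epoxygenase of kidney and liver (probe set 10467897), had log2 levels of 10.13, 10.57, 10.62, 9.20 and 9.73 in N750F DEN, 9.75 and 9.93 in KO DEN, 10.07 and 9.38 in HET DEN, 9.90 and 9.13 in WT DEN, and 10.04 and 9.43 in untreated livers. All pairs of groups overlapped. Array run moved with its level: in the fit run 2 was lower than run 1 by a log2 difference of -0.86 (adjusted p = 0.0114), a call made for 14.6% of all genes and for no other of the 6. The arrays of the runs overlapped, at 9.13 to 9.73 in run 2 and 9.43 to 10.62 in run 1. The group difference of smallest p was 0.66 ± 0.25 for N750F DEN against untreated livers (adjusted p = 0.132).

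Cyp2c70, the muricholic acid enzyme (probe set 10467410), had log2 levels of 12.36, 12.69, 12.50, 12.46 and 12.17 in N750F DEN, 12.45 and 11.91 in KO DEN, 12.60 and 12.29 in HET DEN, 12.57 and 12.36 in WT DEN, and 12.33 and 12.56 in untreated livers. All pairs of groups overlapped. Its differences ran from -0.40 ± 0.26 for KO DEN against WT DEN (adjusted p = 0.717) to 0.35 ± 0.22 for N750F DEN against KO DEN (adjusted p = 0.549), and without KO DEN array 2, the lowest array, these were -0.13 and 0.08. The mean level of Cyp2c70 stood at the 99.9th percentile of all genes, where common quantiles leave little room to differ, as for Alb. In whole liver RNA, fewer cells of a type and less RNA of a gene per cell cannot be told apart for any of these genes.

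Counted by comparison, 2 of the 6 genes rose in WT DEN against untreated livers, where 0.301% of all genes rose and 0.388% fell. None of the other Cyp2c genes tested passed against untreated livers in any DEN group. In WT DEN the median difference of the 6 was 1.03, against -0.02 over all genes tested. In HET DEN 1 of 6 rose, where 0.675% of all genes rose and 0.729% fell, with medians of 1.24 and -0.04. No gene of the 6 passed in N750F DEN, where 3.87% of all genes rose and 2.34% fell, and the medians were 0.35 and -0.06. In KO DEN none passed, where 0.0803% rose and 0.00669% fell, with medians of 0.23 and -0.02. At an unadjusted p under 0.05, in either direction, limma gave 4 of 6 genes and 22.2% of all genes in N750F DEN, 1 of 6 and 9.48% in KO DEN, 4 of 6 and 15.6% in HET DEN, and 3 of 6 and 13.7% in WT DEN. All these comparisons share the untreated arrays.

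Between genotypes after DEN, 3 of the 6 genes were lower in N750F than in WT livers, where 0.288% of all genes were lower and 1.13% higher. Cyp2c39, not among the 6, was the 1 other Cyp2c gene to be lower there, and also against HET DEN. The median difference of the 6 was -0.95, against -0.01 over all genes. Against HET DEN 2 of 6 were lower in N750F DEN, where 0.334% of all genes were lower and 1.3% higher, with medians of -1.15 and -0.01. KO DEN had 1 of 6 lower than HET DEN, where 0.0803% of all genes were lower and 0.221% higher, with medians of -1.02 and 0.00. KO DEN had none past the threshold against WT DEN, where 0.0468% of all genes passed, all higher, and the medians were -0.79 and -0.01. Limma at an unadjusted p under 0.05 gave 3 of 6 there, and 8.55% of all genes. The medians of the 6 without KO DEN array 2 were -1.18 against HET DEN, -0.67 against WT DEN and 0.14 against untreated livers. The arrays of 4 of the 6 genes lay lower in KO DEN than in WT DEN without overlap, which held for 14.5% of all genes.

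HET DEN against WT DEN gave none of the 6, where 0.00669% of all genes passed, and 1 of 6 and 6.88% at an unadjusted p under 0.05. N750F DEN against KO DEN gave none of the 6 and 0% of all genes, with 3 of 6 and 12.2% at an unadjusted p under 0.05 in limma. Without KO DEN array 2 these were 1 of 6 and 3.82%. The comparisons of N750F DEN and KO DEN with WT DEN use the arrays that also enter WT DEN against untreated livers.

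**Figure D2:**
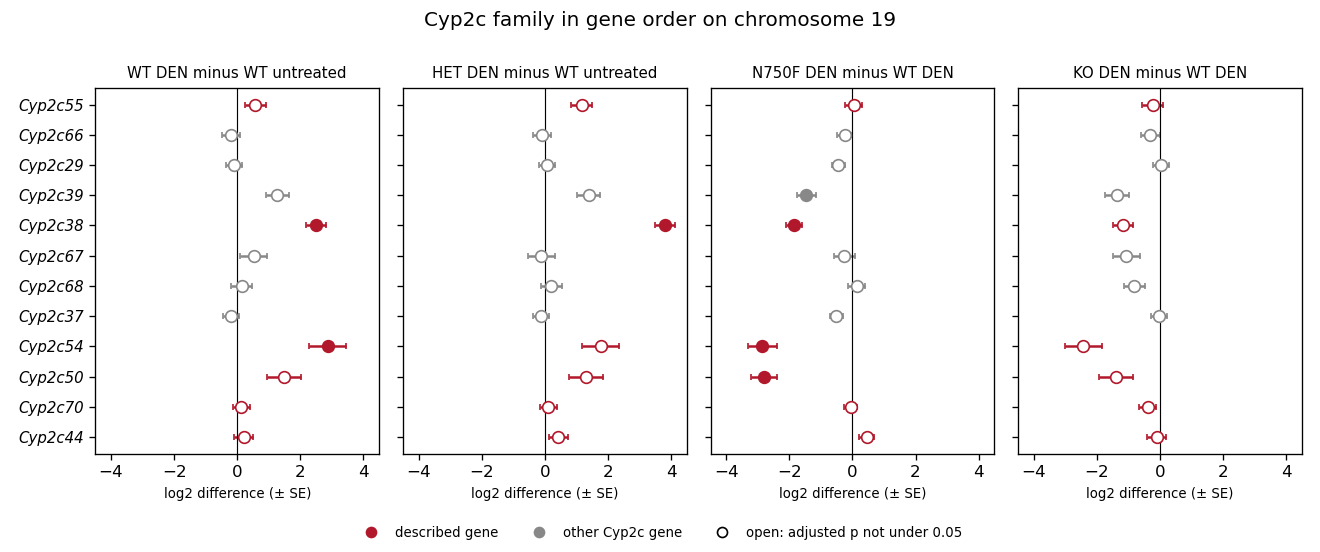
Log2 differences (± SE) of the 6 described Cyp2c genes (red) and the other 6 tested (grey) in 4 comparisons, ordered from top to bottom as on chromosome 19, with filled points for an adjusted p under 0.05. Cyp2c38, Cyp2c54, Cyp2c50 and Cyp2c39, the neighbour of Cyp2c38, lay far from 0 in N750F DEN against WT DEN (-1.85, -2.86, -2.81 and -1.46). Cyp2c37, next to Cyp2c54, was at -0.52, and Cyp2c70 and Cyp2c44, the last in this order, were at -0.05 and 0.45. Distances between genes are not shown.

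In the order of genes on chromosome 19, Cyp2c38 follows Cyp2c39, and Cyp2c54 and Cyp2c50 stand side by side between Cyp2c37 and Cyp2c70. Cyp2c39, a retinoic acid hydroxylase that was not among the 6, had log2 levels of 9.94, 10.84, 10.86, 10.82 and 9.79 in N750F DEN, 10.59 and 10.65 in KO DEN, 12.12 and 11.90 in HET DEN, 11.95 and 11.83 in WT DEN, and 10.76 and 10.68 in untreated livers. HET DEN and WT DEN arrays lay above all others, as for Cyp2c50. It was lower in N750F DEN than in WT DEN by -1.46 ± 0.29 (log2, adjusted p = 0.0274) and than in HET DEN by -1.58 ± 0.29 (adjusted p = 0.0129). Against untreated livers its differences were 1.39 ± 0.37 in HET DEN (adjusted p = 0.0775) and 1.27 ± 0.37 in WT DEN (adjusted p = 0.138).

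Cyp2c37, whose upstream window was most like that of Cyp2c50, did not pass in any of these comparisons. Its level was 10.94 to 11.52 in N750F DEN, 11.54 and 11.85 in KO DEN, 11.93 and 11.85 in HET DEN, 11.80 and 11.84 in WT DEN, and 11.96 and 11.86 in untreated livers. N750F DEN arrays thus lay below all the other arrays, and the difference from WT DEN was -0.52 ± 0.20 (adjusted p = 0.262). Cyp2c29, Cyp2c66, Cyp2c67 and Cyp2c68 likewise had no call, with differences of -0.45 to 0.14 between N750F DEN and WT DEN. Cyp2c65 was left out as dim.

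As a description over the 13 arrays, which share groups and runs, Pearson's r was 0.85 between Cyp2c50 and Cyp2c54, 0.76 between Cyp2c38 and Cyp2c50 and 0.69 between Cyp2c38 and Cyp2c54. Cyp2c55 gave 0.68 with Cyp2c38 but 0.15 with Cyp2c50, and Cyp2c70 gave values from -0.10 to 0.23 with the other described genes. The genes outside the family whose levels were most like those of Cyp2c38 were Aox1 (r = 0.952), an aldehyde oxidase, and Creg1 (r = 0.946). For Cyp2c50 they were Spred3 (r = 0.904) and Baat (r = 0.889), which conjugates bile acids, and for Cyp2c54 Olfr402 (r = 0.866) and Fmo2 (r = 0.823), a flavin monooxygenase. For Cyp2c55 they were Rgs6 (r = 0.872) and Upb1 (r = 0.830), for Cyp2c44 Cdh1 (r = 0.946) and Dcn (r = 0.936), and for Cyp2c70 Nit2 (r = 0.920) and Bphl (r = 0.912).

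Regulators of P450 genes were read beside the family. Of 26 nuclear receptors and liver transcription factors tested, 2 were lower and 24 did not pass in N750F DEN against WT DEN, with a median difference of -0.24. Onecut1, the liver factor HNF6, had log2 levels of 7.61, 7.21, 6.80, 7.52 and 6.94 in N750F DEN and 9.79 and 8.60 in WT DEN. These did not overlap, as for 6.9% of all genes in that direction, and differed by -2.01 ± 0.29 (adjusted p = 0.00688). The other Onecut1 levels were 7.86 and 7.77 in KO DEN, 8.07 and 7.95 in HET DEN, and 8.37 and 8.71 in untreated livers. HET DEN thus lay below both untreated arrays, as it did not for Cyp2c38 or Cyp2c50. Cebpb differed by -1.14 ± 0.26 (adjusted p = 0.0483). Nr1i3, which encodes CAR, was lower in N750F DEN than in HET DEN by -1.51 ± 0.33 (adjusted p = 0.0338), the 1 of 26 to pass there.

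CAR was also among 4 of the 26 that fell in N750F DEN against untreated livers, at -1.42 ± 0.34 (adjusted p = 0.0307), with Foxa2 (-1.10 ± 0.28), Onecut1 (-1.21 ± 0.31) and Tef. Arnt (0.92 ± 0.21) and Nfe2l2, which encodes NRF2 (0.81 ± 0.21), rose, and 20 did not pass. In WT DEN against untreated livers Foxa2 fell by 1.69 ± 0.33 (adjusted p = 0.0377) and 25 did not pass, and in HET DEN Nfe2l2 rose by 1.20 ± 0.25 (adjusted p = 0.0361) and 25 did not pass.

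Of 17 tested target genes of CAR and PXR other than Cyp2c, 2 rose in WT DEN, 4 in HET DEN and 1 in KO DEN against untreated livers. In N750F DEN 3 rose and 1, the carboxylesterase Ces2a, fell by 1.49 ± 0.38. Ephx1, microsomal epoxide hydrolase, was among those that rose in each of these, by 2.12 ± 0.25 in N750F DEN, 2.39 ± 0.29 in KO DEN (2.33 without array 2), 2.65 ± 0.30 in HET DEN and 2.64 ± 0.30 in WT DEN. Its levels were 9.73 to 11.09 in the DEN arrays of all genotypes and 8.62 and 8.34 in untreated livers. Between N750F DEN and WT DEN, Gstm3, a glutathione transferase (-0.87 ± 0.20, adjusted p = 0.0449), was the 1 of 17 to pass.

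Among 19 tested genes of arachidonic acid epoxides and eicosanoids, Cyp4f14, a leukotriene and fatty acid hydroxylase, had its highest levels in HET DEN and WT DEN, where those of Cyp2c38 and Cyp2c50 also were. Its log2 levels were 8.10, 7.66, 7.13, 7.57 and 7.68 in N750F DEN, 8.27 and 8.91 in KO DEN, 9.72 and 9.86 in HET DEN, 9.64 and 9.87 in WT DEN, and 6.98 and 7.13 in untreated livers. The untreated arrays were the lowest, as they were not for Cyp2c50. Cyp4f14 rose by 2.66 ± 0.32 in WT DEN against untreated livers (adjusted p = 0.00463) and was lower in N750F DEN than in WT DEN by -2.12 ± 0.26 (adjusted p = 0.00235), where the other 18 genes of the list did not pass. Ephx2, the soluble epoxide hydrolase that opens the epoxides made by CYP2C enzymes, fell by 0.92 ± 0.22 in N750F DEN against untreated livers (adjusted p = 0.0275). Its levels were 8.79 to 9.04 in N750F DEN, 8.96 and 9.42 in KO DEN and 9.06 and 9.16 in HET DEN. They were 9.23 and 9.70 in WT DEN and 9.94 and 9.68 in untreated livers. KO DEN and HET DEN thus also lay below untreated livers without overlap, as for 21.5% and 26.6% of all genes, but did not pass.

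Alas1, the rate-limiting enzyme of haem synthesis in liver, was the 1 of 12 tested genes of P450 electron partners and haem synthesis to pass in N750F DEN against WT DEN. Its log2 levels were 6.46, 6.88, 6.79, 6.24 and 6.45 in N750F DEN, 7.37 and 8.86 in KO DEN, 7.74 and 8.07 in HET DEN, 8.42 and 8.49 in WT DEN, and 6.77 and 7.99 in untreated livers. N750F DEN lay below WT DEN without overlap, as for 6.9% of all genes, by -1.90 ± 0.38 (adjusted p = 0.0246). Untreated array 1 lay within the N750F DEN range.

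Of 33 other tested genes of CYP families 1 to 3, 2 were lower in N750F DEN than in WT DEN, Cyp2f2 (-1.27 ± 0.22, adjusted p = 0.0120) and Cyp2d13 (-1.18 ± 0.27, adjusted p = 0.0475), and the median was -0.16. Against HET DEN 3 of 33 were lower in N750F DEN, with a median of -0.26, and the same 3 in KO DEN, with a median of -0.53: Cyp1a1, Cyp2d13 and Cyp3a57. On leaving out KO DEN array 2 the KO DEN differences were -1.78 for Cyp1a1 (adjusted p = 0.0444), -1.65 for Cyp3a57 (adjusted p = 0.0298) and -1.39 for Cyp2d13, which no longer passed (adjusted p = 0.105). The 2 comparisons share the HET DEN arrays. Cyp1a1, induced by aryl hydrocarbon receptor ligands, was at 5.20 to 6.15 in N750F DEN, 6.12 and 6.23 in KO DEN, 7.72 and 8.00 in HET DEN, 6.01 and 6.28 in WT DEN, and 6.38 and 6.42 in untreated livers, so that HET DEN alone stood above.

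**Figure D3:**
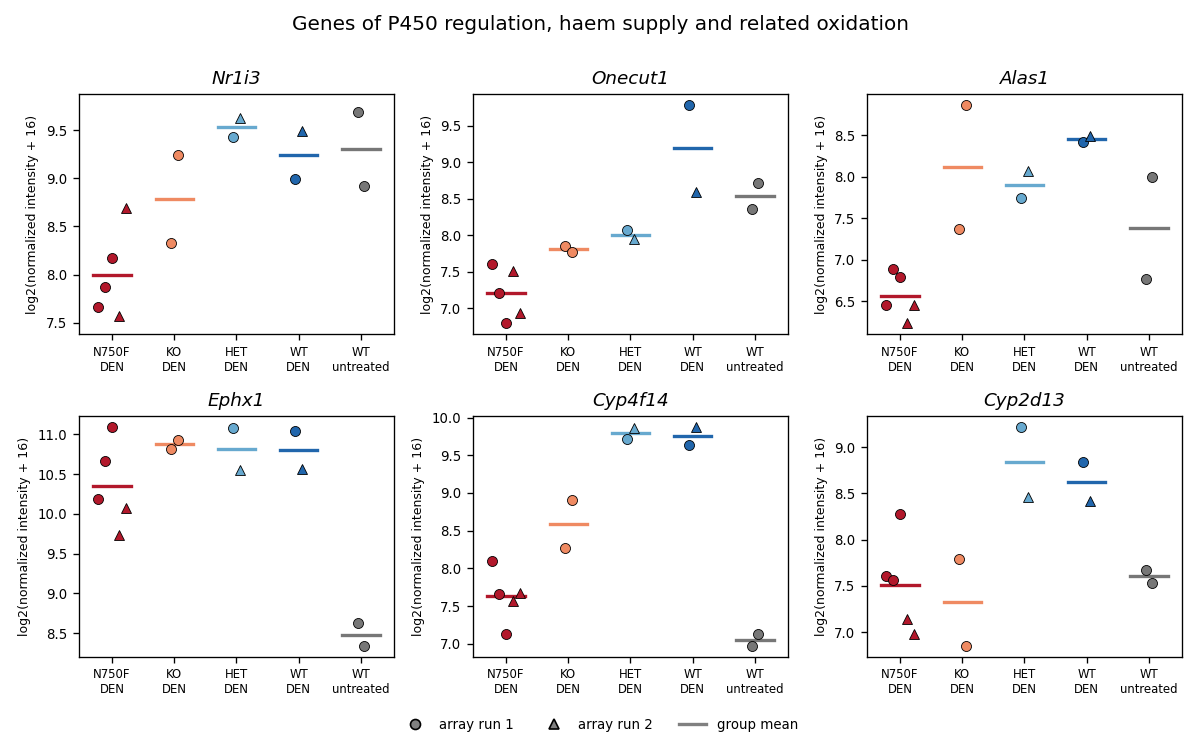
Log2 of normalized intensity plus 16 in each of the 13 arrays for genes of P450 regulation (Nr1i3, Onecut1), haem synthesis (Alas1) and related oxidation (Ephx1, Cyp4f14, Cyp2d13), with circles for run 1, triangles for run 2 and a line at each group mean. Ephx1 was at 9.73 to 11.09 in all DEN groups against 8.62 and 8.34 in untreated livers, whereas Cyp4f14 reached 9.64 to 9.87 only in HET DEN and WT DEN.

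Markers of other liver cells differed between the groups as well. Of 14 macrophage markers 2, Vsig4 and Lyz2, were higher in N750F DEN than in WT DEN and 12 did not pass, and none of the 14 passed in the other comparisons between DEN groups. The summed intensity of the 14 genes was 2826 to 4528 in N750F DEN, 3070 and, in array 2, 4570 in KO DEN, 2333 to 2584 in HET DEN, 1986 to 2017 in WT DEN, and 4161 to 5801 in untreated livers. Lyz2 was higher in N750F DEN than in WT DEN by 1.15 ± 0.20 (log2, adjusted p = 0.0126) and fell in WT DEN against untreated livers by 1.32 ± 0.25 (adjusted p = 0.0364). Summed neutrophil markers (9 genes) were at 326 to 640 in N750F DEN, 355 to 363 in KO DEN, 268 to 288 in HET DEN, 214 to 283 in WT DEN and 492 to 600 in untreated livers, and none of the 4 tested passed between DEN groups. Col3a1, the 1 of 12 stellate and fibroblast markers to pass in N750F DEN against WT DEN, was higher by 1.31 ± 0.28 (adjusted p = 0.0365). Stab1, the 1 of 12 endothelial markers to pass in N750F DEN against HET DEN, was higher by 0.93 ± 0.20 (adjusted p = 0.0309). The part of these cells in the Cyp2c differences was not tested. The hepatocyte sums given above overlapped between N750F DEN, at 57972 to 68583, and WT DEN, at 52227 to 59629. These sums rest on bright genes, so the limit given for Alb applies and they do not compare hepatocyte content.

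The sex of the mice also moved with the groups, since both WT DEN mice were female and both HET DEN mice male. With the mean level of Y-linked genes as a covariate, the differences between N750F DEN and WT DEN were -1.79 for Cyp2c38, -2.79 for Cyp2c50 and -2.77 for Cyp2c54 (adjusted p = 0.00855, 0.0158 and 0.0185). Against HET DEN they were -3.42 for Cyp2c38 (adjusted p = 0.00227) and -2.72 for Cyp2c50 (adjusted p = 0.0897). For WT DEN against untreated livers they were 2.38 for Cyp2c38 (adjusted p = 0.0172) and 2.70 for Cyp2c54 (adjusted p = 0.0986). Among the 4 females and 1 male of N750F DEN, the male, array 1, had the lowest Cyp2c38 level of the group and the second lowest Cyp2c50 level. In untreated livers the male, array 1, was instead the higher, at 5.87 against 5.45 for Cyp2c38 and 10.31 against 9.54 for Cyp2c50. Only N750F DEN and untreated livers held both sexes, so the covariate rested mainly on them.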

How the data were processed

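The authors deposited a table of intensities for 35556 probe sets in the 13 livers. Affymetrix Expression Console 1.1 and, with no version, RMA are named in the submitters' processing notes. The deposited intensities were linear, with array medians of 48.2 to 82.99, and the genome build was not given in the sources used here. Arrays were brought to common quantiles in limma 3.58.1 (R 4.3.3). An offset of 16 was added before log2, so that differences of dim genes are understated. Array annotation gave 21789 probe sets 1 symbol, 1621 several and 12146 none. Of the 21789, 21698 were matched by Entrez ID to a RefSeq gene, whose symbol was then used. The probe set with the highest mean stood for a gene, and the dimmest 25% of genes, with means under 5.94, were not tested.

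A single limma model (lmFit, eBayes) held the 5 groups and array run, with 7 residual degrees of freedom, and gave 10 comparisons with Benjamini-Hochberg adjustment over all genes tested. Because run is a term, a difference can depart from that of the group means. No 2 arrays held identical values, and the correlation between arrays was at least 0.870. The model was also tested on simulated data.

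The 6 genes, the gene lists and the tests were chosen with earlier results of these data known. Named genes were the 6, Rb1, up to 3 passing genes of smallest p per list and comparison, and the 2 genes most like each of the 6. Other genes named were chosen after their values were seen. Alternatives were another normalization, offsets of 1 and 50, other filters, no run term, run 1 alone, a replicate block, a Y-linked covariate, the mean of all probe sets of a gene, the arrays of only the 2 groups compared, and leaving out each array. Leaving out KO DEN array 2 for genes other than the 6 and for medians was added after seeing the data. Promoter windows were compared with Biopython 1.88. The number of arrays limits the precision.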

Additional observations from a re-analysis of the deposited data

How the results depend on the processing

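All 9 differences of the 6 described genes that passed the threshold kept their direction under all 25 alternatives, and Cyp2c38 in HET DEN against untreated livers also kept its call in all 25 (log2 difference 3.14 to 4.28, adjusted p up to 0.0443). The calls of Cyp2c39 were not put through these alternatives. Fewer genes passed in several settings, whose cause was not tested beyond the smaller number of arrays in some of them. With run 1 arrays only, the counts were 0 of 6 for KO DEN against HET DEN, N750F DEN against HET DEN and WT DEN, and WT DEN against untreated livers. With only the arrays of the 2 groups compared they were 0 for KO DEN against HET DEN and for WT DEN against untreated livers. With the Y-linked covariate they were 1 for N750F DEN against HET DEN and 1 for WT DEN against untreated livers, which also gave 1 without normalization, with an offset of 1 and without the run term.

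Whether the labels' replicate numbers pair the arrays could not be told. Deviations from group means in 12 same-numbered pairs correlated at -0.13 to 0.45, and 7 of the 12 were above 0.1. In a group of 2 arrays the deviations mirror each other, so the pairs are not all separate. The 6 pairs numbered 3 or 4 had 0.27 to 0.45. In HET DEN and WT DEN these numbers coincide with the array run, but in N750F DEN run 1 also held arrays 1 and 2. With the replicate block in place of the run term, the counts were 0 for KO DEN against HET DEN, 1 for N750F DEN against WT DEN and 0 for WT DEN against untreated livers. It ended the calls of Cyp2c38 (-1.68, adjusted p = 0.0509) and Cyp2c50 (-2.12, adjusted p = 0.0502) in N750F DEN against WT DEN, of Cyp2c38 in KO DEN against HET DEN (-2.11, adjusted p = 0.330), and of Cyp2c38 (2.12, adjusted p = 0.298) and Cyp2c54 (1.16, adjusted p = 0.586) in WT DEN against untreated livers. The block turned the sign of Cyp2c50 (0.062) and Cyp2c54 (0.37) in KO DEN against HET DEN, of Cyp2c54 in N750F DEN against untreated livers (-0.81), of Cyp2c55 in N750F DEN against WT DEN (-0.11), and of Cyp2c70 in N750F DEN against HET DEN (0.039) and WT DEN (0.017).

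Leaving out 1 array at a time gave 0 to 1 of 6 for KO DEN against HET DEN (0 without either HET DEN array), 1 to 3 for N750F DEN against HET DEN (1 without either HET DEN array, 3 without N750F DEN array 3), 0 to 3 for N750F DEN against WT DEN (0 without WT DEN array 4), 0 to 1 for N750F DEN against untreated livers (1 without N750F DEN array 1 or 3) and 1 to 2 for WT DEN against untreated livers (1 without either array of HET DEN, WT DEN or untreated livers, or without N750F DEN array 5). The other 5 counts did not move.

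Among the 60 differences, 17 changed sign in at least 1 setting, none of them one that passed the threshold. Without the run term Cyp2c44 gave -0.0042 in HET DEN and -0.22 in WT DEN against untreated livers, and 0.11 and 0.33 in KO DEN against HET DEN and WT DEN. Cyp2c54 in N750F DEN against untreated livers gave -0.0079 without normalization, -0.0070 with median scaling, -0.076 with an offset of 1, -0.33 without the run term, -0.14 with run 1 or the 2 groups only, and -0.078 with the Y-linked covariate. Cyp2c55 gave 0.045 in KO DEN against WT DEN with that covariate and -0.21 in N750F DEN against WT DEN with run 1 only. Cyp2c70 gave 0.028 (run 1 only) and 0.20 (covariate) in HET DEN against WT DEN, and without the run term -0.0010 in HET DEN and -0.0091 in N750F DEN against untreated livers. On leaving out an array, sign changes met Cyp2c44 in KO DEN (-0.20 to 0.41) and WT DEN (-0.095 to 0.52), Cyp2c50 in KO DEN (-0.31 to 0.46), Cyp2c54 in N750F DEN (-0.43 to 0.35) and Cyp2c70 in HET DEN (-0.0044 to 0.23), KO DEN (-0.53 to 0.0040) and N750F DEN (-0.035 to 0.20), all against untreated livers. They also met Cyp2c55 in KO DEN (-0.44 to 0.10) and N750F DEN (-0.22 to 0.33) against WT DEN, Cyp2c70 in HET DEN against WT DEN (-0.071 to 0.028) and Cyp2c70 in N750F DEN against HET DEN (-0.088 to 0.021). The cause of these was not tested.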
